A study of Mus musculus with 6 samples.

Results

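The 10 genes described here encode the MHC class I antigen presentation pathway: the light chain B2m, the classical heavy chains H2-D1 and H2-K1, the peptide transporter subunits Tap1 and Tap2, the loading chaperone tapasin (Tapbp), the inducible proteasome subunits Psmb8, Psmb9 and Psmb10, and Nlrc5, the transcriptional regulator of the pathway. They were chosen by symbol from the 15973 protein-coding genes for which counts were used. All 10 had enough counts to be tested, among 12572 genes tested. RNA-Seq was performed on 4T1-T VM cells, a sub-clone of the mouse mammary carcinoma line 4T1 that is proficient in vasculogenic mimicry (VM), the formation of vessel-like channels by tumor cells. Cultures were serum-starved overnight in Opti-Mem with BSA, exposed for 4 h to 10 ug/mL acetylated low-density lipoprotein (acLDL) coupled to Alexa-488, returned to complete medium for 1 h and flow sorted. The brightest 25% of cells formed the acLDL-high group and the dimmest 25% the acLDL-low group, so that both groups came from one sub-clone with the same exposure to label, and the labels name no genetic change in either. There were 3 libraries per group, replicates 1 to 3. The sort was done on 3 occasions, but the labels do not say that a replicate number stands for an occasion. Each fold change is taken between the libraries of the same number. The comparison asks whether cells that take up much acLDL, a property of endothelial cells and some macrophages, differ from those that take up little.

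Class I molecules carry peptides from inside the cell to its surface, where CD8 T cells read them. The proteasome cuts proteins into peptides, the TAP transporter moves them into the endoplasmic reticulum, tapasin holds TAP next to the empty heavy chain and B2m, and the loaded complex travels to the surface. Interferons raise most genes of the pathway, exchange the constitutive catalytic proteasome subunits for inducible ones, and act in part through Nlrc5, which reaches promoters through the RFX complex. Tumor cells often lower the pathway and so evade T cells.

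Library totals lay between 70263372 and 94216786 counts, so that 3 counts, the limit that a count of 0 allows, correspond to 0.0323 to 0.0429 CPM (counts scaled to library size with TMM); this limit covers counting error only. Carcinoma markers were high (Krt8 between 865 and 1389 CPM) apart from Krt5, which had 0 counts. The summed level of 13 macrophage and dendritic markers was 16.4 to 20.2 CPM in acLDL-low and 17.1 to 22.3 CPM in acLDL-high cells, with Adgre1, C1qa, C1qb and Xcr1 at 0 counts. Of 10 lymphocyte markers 7 had 0 counts, Ifng among them, and the sum reached at most 0.329 CPM. The 9 endothelial markers summed to at most 2.64 CPM, and the 8 fibroblast markers to between 29.0 and 43.3 CPM, nearly all of it Pdgfra. In sorted bulk populations, fewer cells expressing a gene and less RNA of it per cell cannot be told apart.

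The regulatory sequence of the classical genes is shown first, since B2m and the heavy chains share matches to some of the same short motifs there. For 8 of the 10 genes a promoter was matched in RefSeq (GRCm38.p6), all but Tap2 and Nlrc5. The 250 bases before each start were searched on both strands for short motifs, each given with its share of 32851 promoters. The first was the interferon-stimulated response element (ISRE, GAAANNGAAA, 2.98%). A shorter IRF core (GAANNGAA, 17.2%) has another spacing and is not contained in the ISRE. The others were the gamma-activated site (GAS, TTCNNNGAA, 7.02%), the CCAAT box (CCAAT, 33.8%), the CRE core (TGACG, 17.8%) and the kB site (7.25%). The B2m promoter, chr2:122147437-122147686 on the plus strand, and the H2-K1 promoter, chr17:34000348-34000597 on the minus strand, are given from 5′ to 3′ with every match in capitals.
B2m: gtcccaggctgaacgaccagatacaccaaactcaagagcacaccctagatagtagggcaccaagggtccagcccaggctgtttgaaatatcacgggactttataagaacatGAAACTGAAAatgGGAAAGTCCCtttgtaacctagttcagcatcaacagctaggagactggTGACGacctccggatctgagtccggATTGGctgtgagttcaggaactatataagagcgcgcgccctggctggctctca
H2-K1: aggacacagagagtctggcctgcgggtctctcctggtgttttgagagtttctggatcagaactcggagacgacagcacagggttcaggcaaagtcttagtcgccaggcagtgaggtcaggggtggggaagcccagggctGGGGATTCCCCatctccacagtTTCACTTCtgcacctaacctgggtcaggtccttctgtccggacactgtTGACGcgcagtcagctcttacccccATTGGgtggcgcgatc
B2m held an ISRE directly before a kB match, then a CRE core and a CCAAT box on the other strand. H2-K1 held the kB match first, then the IRF core on the other strand, the CRE core and the CCAAT box. H2-D1 held the same order as H2-K1, followed by a further CCAAT box on its own strand, 53 bases before the start. The window of the other annotated H2-K1 start, not printed, also held a further CCAAT box. In both H2 genes the kB match began 70 bases before the CRE core, and their stretch from the kB match to the IRF core was identical at 29 of 30 bases.
H2-D1: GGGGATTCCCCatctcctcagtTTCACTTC
H2-K1: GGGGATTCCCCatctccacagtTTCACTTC
From the CRE core to the CCAAT box on the other strand the distance between first bases was 25 in B2m, H2-D1 and H2-K1. This stretch is shown for these 3 genes and for H2-M3, a non-classical heavy chain with the same spacing, to show the ends they share and how far the bases between them differ.
B2m: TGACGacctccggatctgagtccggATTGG
H2-D1: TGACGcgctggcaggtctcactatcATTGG
H2-K1: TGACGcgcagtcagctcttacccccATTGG
H2-M3: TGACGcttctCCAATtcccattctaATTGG
H2-D1 and H2-K1 were identical at 23 of these 30 bases and B2m and H2-K1 at 13. These counts include the capital letters at both ends, which are identical because the stretch was chosen by them. The spacing was read off the promoters of B2m and both H2 genes and then counted, and 18 promoters of 15 genes (0.0548%) held it, those 4 genes among them. Of the other members, Psmb8 held a GAS match 97 bases before its start, Psmb10 an IRF core and Tapbp a pair of CCAAT boxes. Tap1 and Psmb9 lie head to head on chromosome 17 with starts 226 bases apart, and the stretch between them held 1 CCAAT box and 1 CRE core. A match is a match of letters and not a binding site.

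Of the 10 class I genes, 2 were higher in acLDL-high than in acLDL-low cells with an adjusted p under 0.05, Psmb8 and Tapbp, and none was lower. Among all genes tested 3.43% were called higher (431 genes) and 4.75% called in either direction (597 genes). The fitted log2 fold change was above 0 for 9 of the 10 genes, beside 50.6% of all genes tested, and its median was 0.11, beside 0.0017 over all genes. The median difference over the 10 genes was 0.09 in pair 1, 0.19 in pair 2 and 0.04 in pair 3 (log2). In 5 of the 10 genes each acLDL-high library exceeded its acLDL-low partner, as it did in 20.9% of all genes. These were B2m, H2-K1, Tapbp, Psmb8 and Psmb9. The acLDL-low and acLDL-high values overlapped for every one of the 10 genes, and the range over replicate numbers exceeded the difference within pairs. How many of all genes tested overlapped in this way was not counted. In a fit with no replicate block, edgeR called 0 genes of the whole table (45 at an unadjusted p under 0.05) and DESeq2 called 0 (77), the 10 class I genes included.

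**Figure D1:**
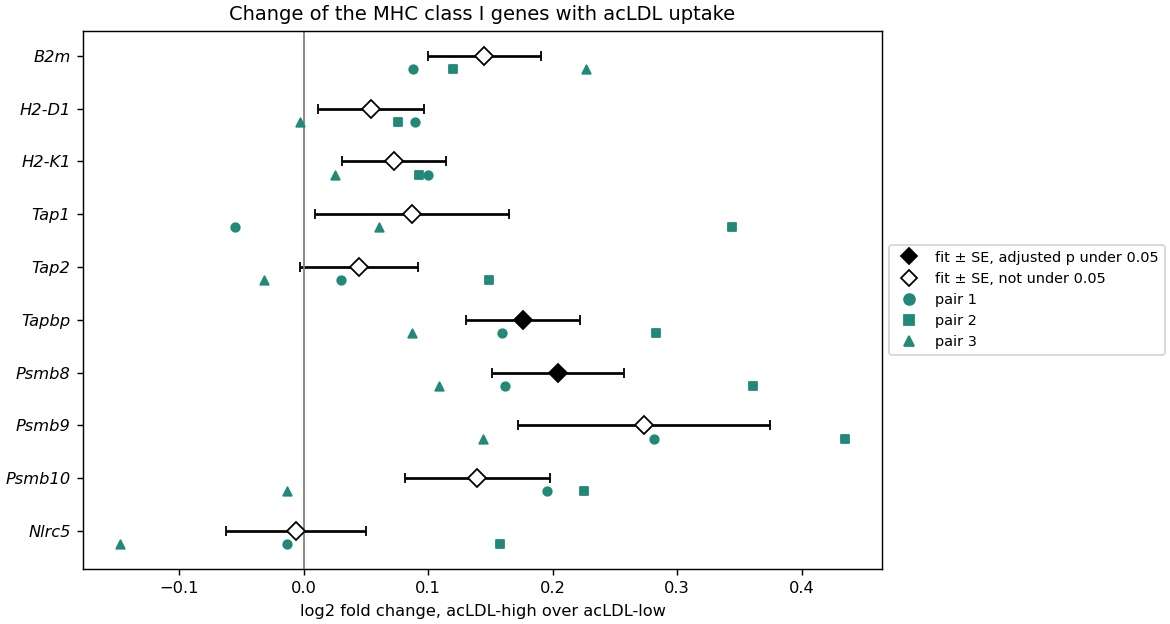
Log2 fold change of each class I gene, acLDL-high over acLDL-low, on the horizontal axis. Diamonds with bars give the edgeR estimate and its standard error, filled where the adjusted p is under 0.05, and the smaller symbols give the 3 pairs; Tapbp and Psmb8 are filled, and Nlrc5 sits at -0.01.

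The inducible catalytic subunits replace constitutive ones and change which peptides the proteasome releases. Psmb8 (LMP7), at chr17:34197721-34201454 on the plus strand, was at 72.3, 22.8 and 48.8 CPM in acLDL-low replicates 1 to 3 and at 80.9, 29.3 and 52.7 CPM in the acLDL-high ones. Each acLDL-high library lay above its partner, and both libraries of replicate 2 were the lowest of their group. The fold change was 0.20 ± 0.05 (log2, SE, n = 3 pairs; edgeR adjusted p = 0.0458), a rise of 15.2%. Psmb8 overlaps the gene Gm20496 on the opposite strand, which did not exceed 0.0793 CPM. The Psmb8 call was lost without replicate 2 (adjusted p = 0.186), without replicate 3 (0.129) and in DESeq2 with the replicate block (0.0536), and over the 8 alternatives with the block its adjusted p ran from 0.0094 to 0.186.

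Psmb9 (LMP2), at chr17:34181987-34187764 on the minus strand, was at 7.73, 1.91 and 4.43 CPM in acLDL-low and at 9.40, 2.59 and 4.90 CPM in acLDL-high cells. It was higher in all 3 pairs and had the largest estimate of the 10 genes, 0.27 ± 0.10, with an edgeR adjusted p of 0.159. Exons of Psmb9 and Tap1 overlap on opposite strands. Psmb10 (MECL-1), at chr8:105935735-105938444 on the minus strand, was at 27.1, 30.5 and 20.3 CPM in acLDL-low and 31.0, 35.6 and 20.1 CPM in acLDL-high cells. Pairs 1 and 2 were higher in acLDL-high cells and pair 3 was level, with an estimate of 0.14 ± 0.06 (edgeR adjusted p = 0.209). In contrast to the other members, Psmb10 was highest in replicate 2.

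Each inducible subunit takes the place of 1 constitutive subunit, so the ratio of the pair was taken on CPM per kb of exon. Psmb8 over Psmb5 was 0.627, 0.128 and 0.434 in acLDL-low and 0.624, 0.167 and 0.542 in acLDL-high cells. The mean log2 difference was 0.23 ± 0.21 (SD, n = 3; exact two-sided sign-flip p = 0.5). Psmb9 over Psmb6 was lower than either other ratio, at 0.0362, 0.00643 and 0.0294 in acLDL-low and 0.0433, 0.00921 and 0.0342 in acLDL-high cells, and was higher in all 3 pairs by 0.33 ± 0.16 (exact p = 0.25). Psmb10 over Psmb7 was 0.495, 0.398 and 0.545 in acLDL-low and 0.564, 0.468 and 0.495 in acLDL-high cells, a difference of 0.09 ± 0.20 (exact p = 0.5). With 3 pairs this exact test cannot go below 0.25. The constitutive subunits themselves did not pass the edgeR test, with log2 fold changes of -0.02 for Psmb5, -0.04 for Psmb6 and 0.04 for Psmb7 (adjusted p = 0.909, 0.63 and 0.666).

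**Figure D2:**
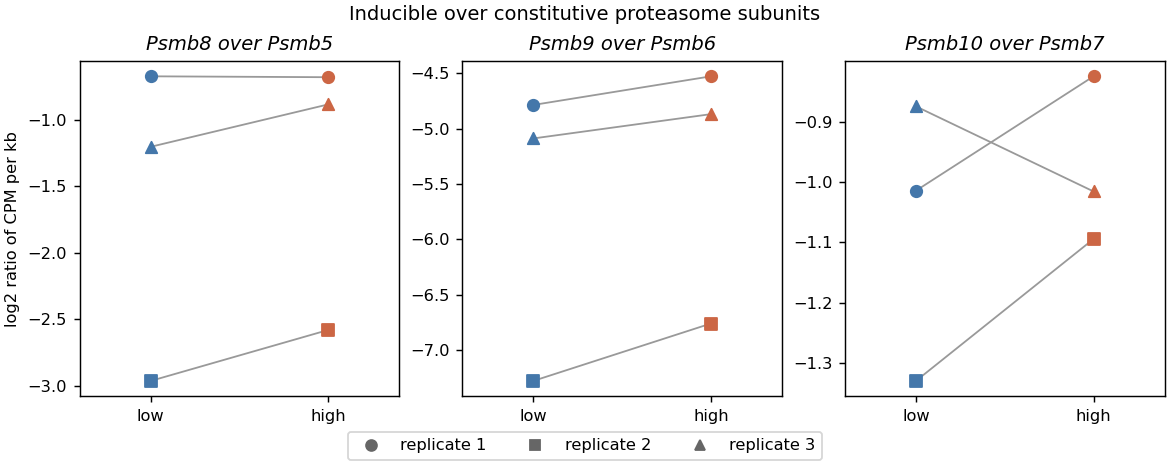
Log2 ratio of each inducible proteasome subunit to the constitutive subunit it replaces, on CPM per kb, in each library, with lines joining libraries of the same replicate number. Psmb9 over Psmb6 rises in all 3 pairs, whereas Psmb8 over Psmb5 is level in pair 1 and Psmb10 over Psmb7 falls in pair 3; the vertical axes differ and do not start at 0.

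Of the 3 genes of PA28, the proteasome activator whose alpha and beta subunits interferon gamma raises, 1 was called higher, beside 3.43% of all genes. Psme1 (PA28 alpha) was at 87.5, 82.5 and 80.0 CPM in acLDL-low and at 96.2, 94.2 and 88.8 CPM in acLDL-high cells. All acLDL-high libraries lay above all acLDL-low ones, and the share of all genes that did so was not counted. Its log2 fold change was 0.16 ± 0.04 (edgeR adjusted p = 0.0453), with calls lost on leaving out replicate 1, 2 or 3 (adjusted p = 0.0625, 0.13 and 0.201) and in DESeq2 with the block (0.0516). Psme2 (PA28 beta) had an estimate of 0.13 (adjusted p = 0.114) and the nuclear subunit Psme3 of 0.01 (0.922). None of 14 other core proteasome genes tested was called in either direction, beside 4.75% of all genes, and their median was 0.04.

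Tapbp, at chr17:33915899-33929292 on the plus strand, was at 203, 155 and 212 CPM in acLDL-low and at 227, 189 and 225 CPM in acLDL-high cells. All 3 acLDL-high libraries exceeded their partners, and replicate 2 was again the lowest in each group. The fold change was 0.18 ± 0.05 (edgeR adjusted p = 0.0471), a rise of 13.0%. The call was lost without replicate 2 (adjusted p = 0.188) and without replicate 3 (0.104), and over the 8 alternatives with the block the adjusted p of Tapbp ran from 0.0121 to 0.188. Tapbp overlaps Zbtb22 on the same strand, which averaged 49.4 CPM in acLDL-low and 48.7 CPM in acLDL-high cells with a log2 fold change of -0.02, and 23.2% of its 50-base windows occur in other genes.

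Tap1, at chr17:34187553-34197225 on the plus strand, was at 23.2, 4.62 and 17.1 CPM in acLDL-low and 22.4, 5.87 and 17.8 CPM in acLDL-high cells. Replicate 2 stood apart in both populations, and the pairs differed in direction. Tap2, at chr17:34203527-34216321 on the plus strand, was at 88.9, 25.8 and 66.6 CPM in acLDL-low and at 90.7, 28.6 and 65.1 CPM in acLDL-high cells, also without one direction. The estimates were 0.09 ± 0.08 for Tap1 and 0.04 ± 0.05 for Tap2 (edgeR adjusted p = 0.595 and 0.665), and both turned to just below 0 without replicate 2 (-0.0010 and -0.0027). Per kb of exon Tap1 stood at 0.123 to 0.189 of Tap2, its partner in the transporter. None of 10 genes for peptide trimming, folding and editing was called, beside 4.75% of all genes in either direction. Their estimates ran from -0.12 for Hspa5 to 0.14 for the trimming peptidase Erap1.

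B2m, the invariant light chain, at chr2:122147686-122153083 on the plus strand, was at 819, 497 and 761 CPM in acLDL-low and at 870, 541 and 890 CPM in acLDL-high cells. It was higher in all 3 pairs, most in pair 3, by 0.15 ± 0.05 (edgeR adjusted p = 0.0963). B2m passed the threshold in DESeq2 with the replicate block (adjusted p = 0.0389) and with no filter on low counts (0.0369), and in no other alternative, with an adjusted p of up to 0.408 among the fits with the block. H2-D1, at chr17:35262730-35267499 on the plus strand, was at 478, 324 and 470 CPM in acLDL-low and 508, 341 and 469 CPM in acLDL-high cells. H2-K1, at chr17:33996017-34000347 on the minus strand, was at 380, 265 and 369 CPM in acLDL-low and 407, 283 and 376 CPM in acLDL-high cells. Their estimates were 0.05 ± 0.04 and 0.07 ± 0.04 (edgeR adjusted p = 0.536 and 0.38).

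The heavy chains kept their proportion: H2-K1 per kb was between 0.690 and 0.728 of H2-D1 in the 6 libraries, while the level of each moved by 1.43 to 1.49 times over the replicates of a group. B2m per kb was 6.41 to 8.10 times H2-K1. 4T1 derives from BALB/c mice (H-2d haplotype) while the mm10 reference is C57BL/6 (H-2b), so heavy chain reads were assigned across a difference in haplotype. In that reference 12.8% of the 50-base windows of H2-D1 and 9.63% of those of H2-K1 also occur in other genes, mostly H2 genes, so the split between copies is uncertain.

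Nlrc5, the regulator that raises class I genes, at chr8:94434356-94527272 on the plus strand, was at 63.4, 27.9 and 56.0 CPM in acLDL-low and at 62.8, 31.2 and 50.6 CPM in acLDL-high cells. It was higher in pair 2, lower in pair 3 and nearly level in pair 1, and its estimate was -0.01 ± 0.06 (edgeR adjusted p = 0.969). Across the alternatives its estimate ranged from -0.08 to 0.07.

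**Figure D3:**
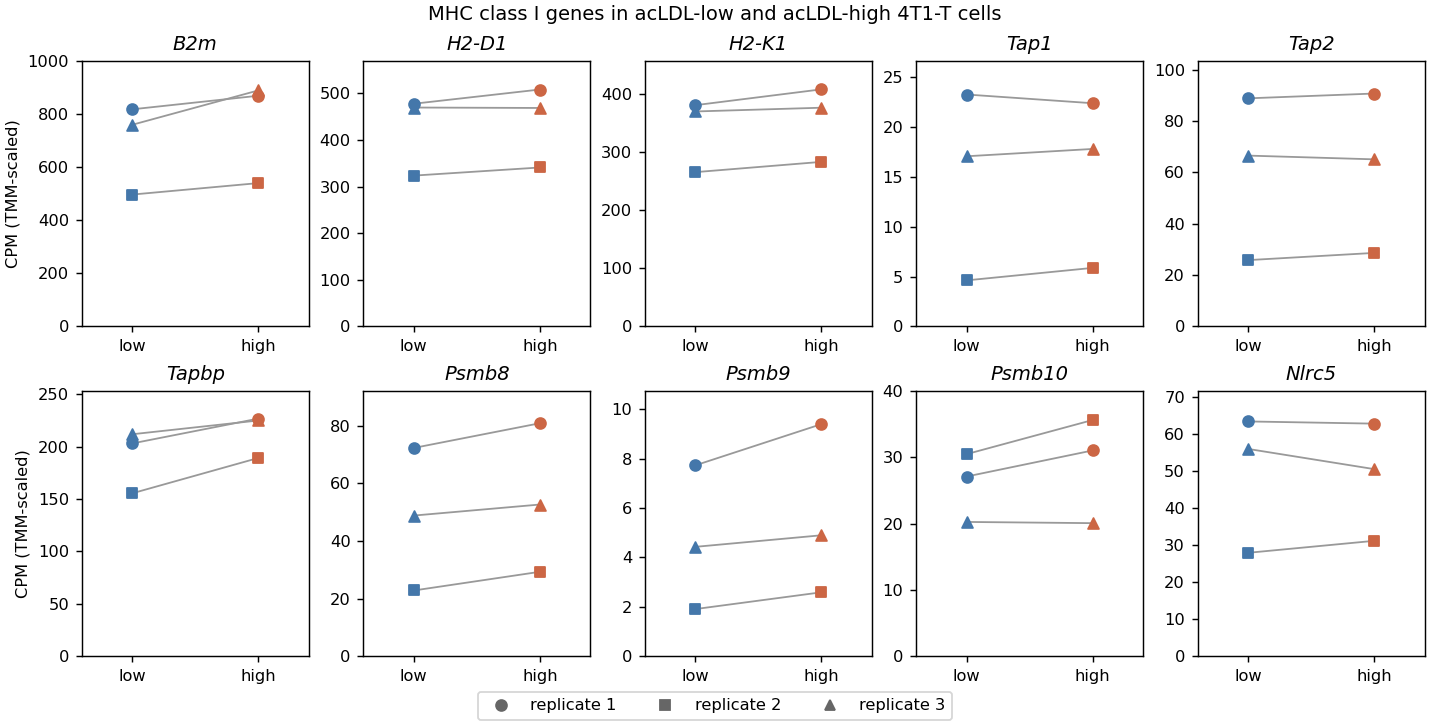
CPM of the 10 class I genes in each library, acLDL-low at left and acLDL-high at right of each panel, with lines joining libraries of the same replicate number and the vertical axes starting at 0. Replicate 2 is lowest for 9 genes and highest for Psmb10, and the range over replicate numbers exceeds the difference within pairs.

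Ordered by mean level per kb in acLDL-low cells (SD, n = 3), B2m came first at 805 ± 199 CPM per kb, then H2-D1 at 164 ± 33.6, H2-K1 at 115 ± 21.6 and Tapbp at 52.4 ± 8.36. H2-D1 lay above H2-K1 in each library, although their ranges overlapped. Tap2 (16.0 ± 8.45), Psmb10 (15.2 ± 3.06) and Psmb8 (14.2 ± 7.33) followed and could not be ordered beyond their spread, and Nlrc5 (5.78 ± 2.20), Tap1 (2.73 ± 1.73) and Psmb9 (1.28 ± 0.798) were lowest, each overlapping its neighbour in range. In acLDL-high cells B2m was at 892 ± 228 CPM per kb and Psmb9 at 1.54 ± 0.947. All 10 genes were thus detected in every library. The labels name no interferon and Ifng had 0 counts, but no other interferon gene was in the lists. The 35 listed interferon-stimulated genes summed to between 233 and 389 CPM per library. Whether the class I levels depend on interferon was not tested.

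Replicate 2 was the lowest in both populations for 9 of the 10 genes. Tap1 in replicate 2 was at 22.9% of the mean of replicates 1 and 3 in acLDL-low and 29.2% in acLDL-high cells, Psmb9 at 31.4% and 36.2%, Tap2 at 33.2% and 36.8%, Psmb8 at 37.6% and 43.9%, and Nlrc5 at 46.8% and 55.0%. B2m and the heavy chains lay at 61.4% to 72.2%, and Tapbp at 74.9% and 83.8%. Psmb10 was above the other replicates, at 129% and 139%, as were the constitutive subunits, whose median was 163% and 156%. Over the 10 genes the median was 54.9% in acLDL-low and 58.2% in acLDL-high cells, beside 99.2% over all genes tested in acLDL-high cells. What sets replicate 2 apart is not given in the sources used here.

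**Figure D4:**
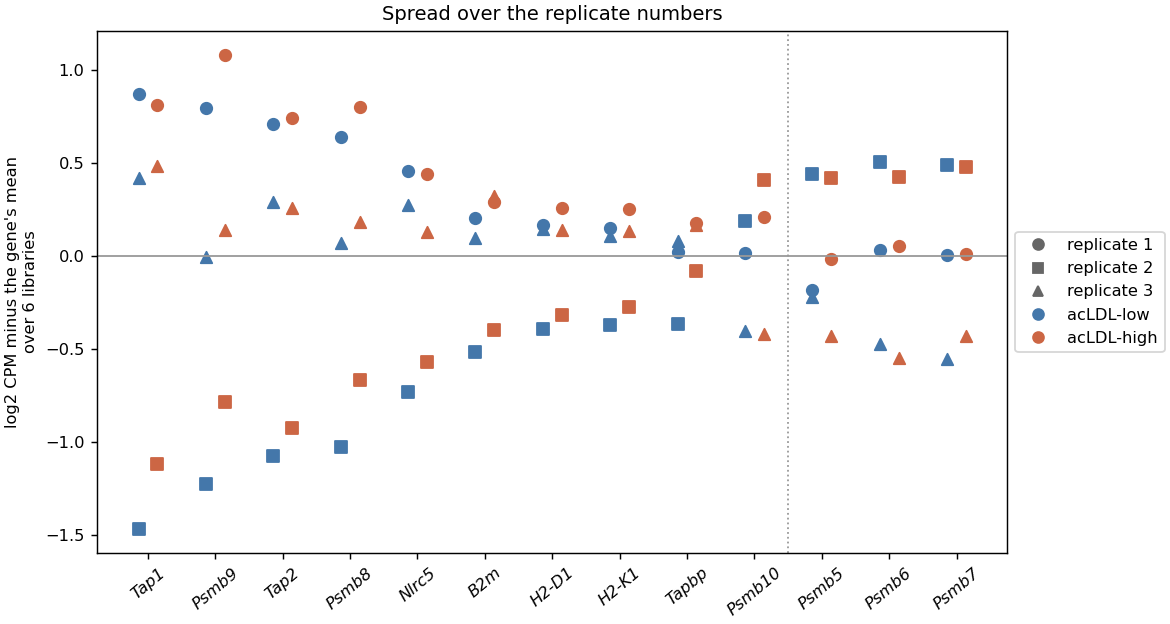
Log2 CPM minus the gene's mean over the 6 libraries for the 10 class I genes and, right of the dotted line, the 3 constitutive proteasome subunits; the symbol gives the replicate number and the color the population. Replicate 2 (squares) lies below the mean for the first 9 genes and above it for Psmb10 and the constitutive subunits, and acLDL-high points of replicate 2 lie above the acLDL-low ones for all 10 class I genes.

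Over the 6 libraries, which form 3 pairs, the genes with a profile most like that of B2m were Gdpd1, Slc43a2, Deptor, Dynlt3 and Tmem127. Genes with a profile like that of Psmb9 included Fgfr2, Psmb8, Dlx1 and Tmem170, and Nlrc5 was most like Abcc10, H2-Q1, Sgsm2, Trim7 and Cfap300. The measure was the Pearson correlation of log2 CPM among 10537 genes. It reached 0.99 with 33 genes for B2m, 21 for Psmb9 and 45 for Nlrc5, and a common shift between replicate numbers enters it.

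Of 20 other class I heavy chains, 16 were tested and 1 was called higher, beside 3.43% of all genes, with a median of 0.08. H2-T24, a non-classical heavy chain, rose by 0.67 ± 0.16 (edgeR adjusted p = 0.0359), from 1.48, 0.829 and 1.39 CPM to 2.43, 1.25 and 2.23 CPM. The call on H2-T24 was lost without replicate 1 (0.113) and without replicate 3 (0.235) and in DESeq2 with the block (0.143). The remaining heavy chains ran from -0.11 for H2-T3 to 0.94 for the neonatal Fc receptor Fcgrt, which was at or below 1.08 CPM. H2-T23, which encodes Qa-1, the ligand of the inhibitory receptor NKG2A, had an estimate of 0.17 with an adjusted p of 0.0543.

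Of 18 transcription factors of the class I promoter and the interferon response, 1 was called higher, beside 3.43% of all genes. Their median was 0.0057. Rfx5, a DNA-binding subunit of the RFX complex, went from 53.3, 35.0 and 35.2 CPM to 62.4, 37.7 and 47.7 CPM, or 0.26 ± 0.06 (edgeR adjusted p = 0.0263), and lost its call without replicate 3 (0.25). Irf1 was lower in pair 1 and higher in pairs 2 and 3, at 66.1, 48.8 and 52.9 CPM in acLDL-low and 59.3, 76.6 and 60.1 CPM in acLDL-high cells (adjusted p = 0.247). Of 10 interferon receptors and signalling genes 1 was called higher, beside 3.43% of all genes. This was Ifngr2, the second chain of the interferon gamma receptor, higher by 0.19 ± 0.05 (edgeR adjusted p = 0.0368). Its call was lost without replicate 1 (0.08), 2 (0.0775) or 3 (0.16) and in DESeq2 with the block (0.066).

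Of 32 interferon-stimulated genes tested outside the pathway, 10 were called higher and none lower, beside 3.43% of all genes, with a median log2 fold change of 0.31 against 0.11 for the 10 class I genes; the difference between these lists was not tested. Those with the smallest p were the chemokine Cxcl10 (0.72), the GTPase Gbp2 (0.51), the RNA sensor Ddx58 (0.28), Oasl1 (0.42) and Gbp3 (0.51). Without replicate 3 the count was 6.

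**Figure D5:**
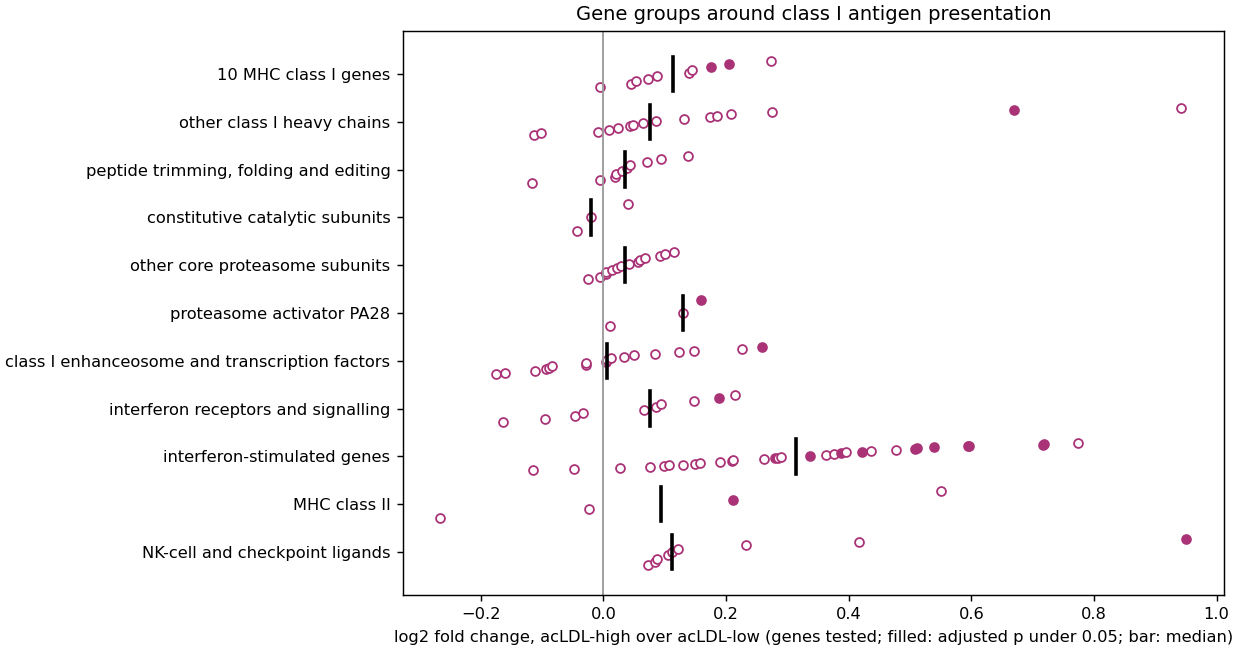
Log2 fold change, acLDL-high over acLDL-low, of every tested gene in the 10 class I genes and in the gene groups around them, with a bar at each median and filled points for an adjusted p under 0.05. The median lies at 0.11 for the 10 class I genes, -0.02 for the constitutive catalytic subunits and 0.31 for the interferon-stimulated genes.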

How the data were processed

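RNA-Seq libraries were prepared by the authors from polyA RNA with a stranded mRNA kit and sequenced as paired reads. Per the submitters' processing notes, STAR 2.5.2a, featureCounts 1.4.3-p1, DESeq2 1.20.0 and the mm10 build were used. The authors deposited raw counts per gene and library, without normalization. Their second table holds their own comparison (mean normalized count, log2 fold change, standard error, Wald statistic, p-value and adjusted p-value) and served only for gene symbols and the list of protein-coding genes. The counting strand setting and the annotation release are not given in the sources used here.

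Counts of the 15973 protein-coding genes were tested with edgeR 4.0.16 (R 4.3.3): filterByExpr, TMM, and the quasi-likelihood test, with a block for the replicate number, adjusted by the Benjamini-Hochberg method over 12572 genes at a threshold of 0.05. The study's methods also used the replicate number. Deviations of same-numbered libraries from their group means correlated at 0.795 to 0.846, those of different numbers at -0.557 to -0.0882, so the numbers pair the samples. No 2 libraries of a group agreed within sampling noise. P-values of the fits with the block measure the spread of the differences within the 3 pairs, since the block takes out shifts between replicate numbers. All replicates are of one line, for which no separate animals or donors exist. Differences within pairs use log2 CPM with a prior count of 2. Levels per kb use the merged length of all exons annotated to a gene in GENCODE M21 (GRCm38), in which 53274 of 53379 gene IDs were found. Which of these exons the cells use was not measured, so levels per kb of different genes, and ratios of them, carry that uncertainty. Ratios were tested by an exact sign-flip permutation over the 3 pairs. On simulated data for this comparison, 187 of 200 genes changed by 1 (log2) among 12467 were recovered, with 12 false calls. The estimates of the 10 class I genes were smaller than this, at most 0.27, and recovery of changes of that size was not simulated.

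The 10 genes and all gene lists were chosen with earlier results of these data known. Named are all 10 genes and, of each list, those with an adjusted p under 0.05 (the 5 of smallest p), the constitutive and PA28 subunits, Irf1 and Rfx5. Further genes chosen by this rule are not reported here. The list extremes Hspa5, Erap1, H2-T3, Fcgrt and H2-Ab1 were named after their values were seen. So were H2-T23, H2-M3, Cd274, Ciita, H2-Aa, H2-Eb1, Ptprc, Cd68, Krt8, Pdgfra, the markers named at 0 counts and the genes outside the tested table. The motifs and the CRE to CCAAT spacing were likewise chosen after the promoters were read. The symbol Cd155 was not matched in the table, where the gene is listed as Pvr. Alternatives were no replicate block, DESeq2 size factors, DESeq2 1.42.0 (block included or not), no low-count filter, a minimum of 10 counts per library, the full count table, and leaving out each pair.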

Additional observations from a re-analysis of the deposited data

Results flagged for a closer look

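The following genes of the lists had counts in the deposited table but lay outside the protein-coding genes that were tested. The class I genes H2-T10 and H2-Bl averaged 3.72 and 1.86 CPM over the 6 libraries, with log2 fold changes of -0.03 and 0.29 when all genes of the count table were fitted with edgeR (adjusted p = 0.937 and 0.388). Ifi30, a reductase that prepares antigens for class II loading, averaged 37.3 CPM with a log2 fold change of 0.02 (adjusted p = 0.913). The interferon-stimulated genes Mx2 and Cxcl11 averaged 0.425 and 0.189 CPM, with log2 fold changes of -0.16 and -0.05 (adjusted p = 0.883 and 0.972). These 5 genes lay above the limit that a count of 0 allows and none passed the threshold in that fit.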

How the results depend on the processing

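With no replicate block, 0 of 12329 genes were called by edgeR (45 at an unadjusted p under 0.05) and 0 by DESeq2 (77), and 0 of the 10 class I genes by either. In the other settings with all 6 libraries 470 to 932 genes were called, 932 of them with no filter on low counts. Leaving out each replicate in turn gave 126 to 869 genes and 0 to 2 class I genes; 126 were called without replicate 3 and 869 without replicate 2. The class I count was 0 without replicate 2, 0 without replicate 3 and 2 without replicate 1. The median log2 fold change of the 10 genes stayed between 0.08 and 0.14 in all 10 alternatives. Tapbp kept its call in 6 of them and Psmb8 in 5. Nlrc5 turned to 0.00072 with no filter on low counts and to 0.0039 with all genes of the count table, and ran from -0.082 to 0.069 on leaving out a replicate. Likewise Tap1 ran from -0.0010 to 0.178 and Tap2 from -0.0027 to 0.086. Leaving out a replicate, the log2 ratio changes ran from 0.16 to 0.35 for Psmb8 over Psmb5, 0.24 to 0.39 for Psmb9 over Psmb6 and 0.02 to 0.21 for Psmb10 over Psmb7. Apart from the calls lost in fits without it, the replicate block changed no direction among the 10 genes. The calls on Psme1, Rfx5, Ifngr2, Cd74, Raet1d and H2-T24 were all lost without replicate 3. The cause of these changes was not tested. Depth limits genes at few counts, where the limit for a count of 0 is 0.0323 to 0.0429 CPM; its effect on other genes was not measured.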

Other observations

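Of 13 class II genes, 4 were tested and 1 was called higher, beside 3.43% of all genes. This was Cd74, the invariant chain, which went from 49.8, 17.8 and 44.6 CPM in acLDL-low to 56.4, 22.7 and 48.5 CPM in acLDL-high cells (log2 fold change 0.21 ± 0.05, edgeR adjusted p = 0.0412). The call was lost without replicate 2 (0.14), without replicate 3 (0.128) and in DESeq2 with the block (0.055). Estimates of the 4 tested genes ran from -0.27 for the class II regulator Ciita to 0.55 for the class II chain H2-Ab1, which was not called. Ciita did not exceed 0.515 CPM, and H2-Aa and H2-Eb1 did not exceed 0.0286 CPM, which is below the floor of 3 counts.

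Among 9 tested ligands of NK cells and immune checkpoints, 1 was called higher and none lower, beside 3.43% of all genes called higher. Raet1d, a ligand of the activating receptor NKG2D, went from 0.991, 0.173 and 0.40 CPM to 1.55, 0.375 and 1.00 CPM (0.95 ± 0.25, edgeR adjusted p = 0.046), with the call lost without replicate 1 (0.0531) and without replicate 3 (0.323), and with no adjusted p from DESeq2 with the block. The checkpoint ligand Cd274 (PD-L1) was at 3.67, 1.88 and 3.56 CPM in acLDL-low and 3.44, 2.54 and 3.50 CPM in acLDL-high cells, without a common direction over the pairs (adjusted p = 0.793).

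Of the marker lists, the junction genes Cldn3, Cldn4 and Cldn7 among 9 tested carcinoma markers were called higher (log2 fold changes of 0.28, 0.53 and 0.30). So was Cd14 among 3 tested macrophage and dendritic markers (0.32, edgeR adjusted p = 0.0246). Estimates of those 3 ran from -0.28 for Cd68 to 0.83 for Ptprc, neither of which was called. Ptprc was at or below 0.222 CPM. Among all genes tested 3.43% were called higher. The call on Cldn7 was lost without replicate 3 (0.0659) and that on Cd14 without replicate 1 (0.0714) or 3 (0.175) and in DESeq2 with the block (0.0545). None of 1 lymphocyte, 3 endothelial and 2 fibroblast markers tested was called, beside 4.75% of all genes in either direction. The part of these genes in the class I values was not tested.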
